A study of Homo sapiens with 21 samples.

Results

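MCF10A cells, an immortalised, non-tumorigenic line of human mammary epithelium, were compared 60 min after the addition of epidermal growth factor (EGF) with cells harvested before it. The comparison took every array labelled with 60 min or with 0 min, which gave 6 of the 21 arrays, 3 per time, and it covered all 16614 genes that could be measured. Cells of both groups had spent 24 h without EGF and then 24 h in starvation medium with 1% horse serum. The treated group received EGF at 20 ng/ml for 60 min, and the untreated group, called 0 min, received none. The labels name no genetic change in either group and describe the replicates, A, B and C, as biological triplicates, all from this single line. No untreated arrays were taken at 60 min, so what EGF did and what the medium change or a further hour in culture did cannot be told apart. Ribosomal RNA was removed from total RNA and the biotin-labelled target was hybridised to exon arrays. The other 15 arrays, at 20, 40, 120, 240 and 480 min, entered the estimate of the spread between replicates and are used below to follow the same genes in time.

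EGF binds the receptor EGFR, which activates RAS and the kinases RAF, MEK and ERK. ERK and its downstream kinases act on transcription factors already present in the cell, such as ELK1 with SRF and CREB, and these switch on immediate early genes without new protein synthesis. Many of the first products are themselves transcription factors (the FOS, JUN, EGR and NR4A families), while others, such as the dual-specificity phosphatases and Sprouty proteins, act back on the pathway. In mammary epithelium the pathway is known for its part in proliferation, migration and survival, and cells also release EGF family ligands of their own.

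A gene's value is the median of log2(intensity + 16) over its probesets, and a change is the difference of the means at 60 and 0 min on that scale, followed by its standard error. For genes of low signal this scale gives a smaller change than the true one. A gene was called, and is said to have risen or fallen, when limma's adjusted p (Benjamini-Hochberg over all 16614 genes) was below 0.05. Values of replicates are given in the order A, B, C. Each p measures only the spread between these cultures. In bulk RNA, fewer cells of a type and less RNA per cell cannot be told apart.

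The promoters of the genes that open the results on each side are shown first, to give the reader the sequence next to the start site of the genes with the largest changes. They belong to 4 of the 5 largest rises and to the 2 largest falls, and all have an entry in RefSeq's promoter table. Each line gives the 250 bases before the annotated start, on the strand of the gene. Capitals mark a TATA box (TATAAA), the sole match among the 6 motifs searched.
NR4A1: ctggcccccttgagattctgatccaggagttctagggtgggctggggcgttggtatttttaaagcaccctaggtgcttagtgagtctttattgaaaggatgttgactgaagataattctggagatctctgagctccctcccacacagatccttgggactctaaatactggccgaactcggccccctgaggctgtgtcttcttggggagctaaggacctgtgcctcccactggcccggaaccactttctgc
HBEGF: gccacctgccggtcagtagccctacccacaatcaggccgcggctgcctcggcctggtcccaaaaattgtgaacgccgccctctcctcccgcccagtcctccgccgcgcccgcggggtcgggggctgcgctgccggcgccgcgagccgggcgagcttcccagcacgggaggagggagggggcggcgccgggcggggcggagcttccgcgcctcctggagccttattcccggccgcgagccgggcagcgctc
PTGS2: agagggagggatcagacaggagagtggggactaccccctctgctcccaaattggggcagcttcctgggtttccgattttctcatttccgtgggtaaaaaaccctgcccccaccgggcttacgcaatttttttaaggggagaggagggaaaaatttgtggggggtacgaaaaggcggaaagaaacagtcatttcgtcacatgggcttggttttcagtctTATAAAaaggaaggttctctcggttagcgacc
FOSB: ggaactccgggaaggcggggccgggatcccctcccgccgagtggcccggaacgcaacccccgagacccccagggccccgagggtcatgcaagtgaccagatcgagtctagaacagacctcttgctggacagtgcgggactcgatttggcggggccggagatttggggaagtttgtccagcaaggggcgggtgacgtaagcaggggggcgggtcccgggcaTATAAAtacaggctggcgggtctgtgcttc
BCL6: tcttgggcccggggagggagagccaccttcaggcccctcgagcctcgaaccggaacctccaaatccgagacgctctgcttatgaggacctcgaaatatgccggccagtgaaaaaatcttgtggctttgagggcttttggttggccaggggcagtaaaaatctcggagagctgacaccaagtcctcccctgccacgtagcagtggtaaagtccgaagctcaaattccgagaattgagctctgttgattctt
CIRBP: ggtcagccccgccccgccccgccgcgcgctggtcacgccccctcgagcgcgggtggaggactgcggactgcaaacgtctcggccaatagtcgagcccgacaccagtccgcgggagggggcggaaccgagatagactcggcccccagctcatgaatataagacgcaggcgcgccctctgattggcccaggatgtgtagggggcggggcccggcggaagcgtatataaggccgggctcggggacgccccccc
In the RefSeq table (GRCh38.p14), the NR4A1 bases are chr12:52022582-52022831 on the plus strand and those of HBEGF chr5:140346604-140346853 on the minus strand. PTGS2 lies at chr1:186680424-186680673, minus strand, and its TATA box covers bases 32 to 27 upstream of the start. FOSB lies at chr19:45467746-45467995, plus strand, with its TATA box at bases 30 to 25 upstream. BCL6 lies at chr3:187745469-187745718, minus strand, and CIRBP at chr19:1269082-1269331, plus strand. Neither holds TATAAA in these bases, nor do NR4A1 and HBEGF. These are annotated promoters, and the arrays did not measure where transcription started.

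The largest rise was that of NR4A1, an orphan nuclear receptor and classic immediate early gene. Its value was 5.54, 5.35 and 5.10 in untreated cells and 9.72, 9.72 and 9.51 after EGF. The 3 treated arrays lay far above the 3 untreated ones, and the change was 4.32 ± 0.12 (adjusted p = 2.2e-16). The untreated values stood at the probeset threshold of 5.18, 1 of them below it, and no detection calls were used, so no fold is given. HBEGF, a ligand of EGFR itself, read 6.58, 7.27 and 6.92 before EGF and 10.83, 10.69 and 10.72 after it, a change of 3.83 ± 0.16. All 8 of its probesets were higher. PTGS2, which encodes the inducible cyclooxygenase, went from 5.45, 5.59 and 5.83 to 9.28, 9.14 and 9.31, with all 16 probesets higher. Its untreated values, too, stood close to that threshold, below which a probeset's mean over all arrays was discarded, so the gene was near the lower end of the measured range before EGF. LIF, a cytokine of the interleukin 6 family, had the same kind of profile, from 5.30, 5.14 and 5.05 to 8.08, 8.38 and 8.27, but on 3 probesets.

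On the side of the falls the changes were smaller. BCL6, a transcriptional repressor and a known target of FOXO factors, read 7.44, 7.31 and 7.50 before EGF and 6.08, 6.25 and 6.76 after it. The 3 treated arrays were all below the untreated ones but spread more widely, and the change was -1.05 ± 0.15 (adjusted p = 6.5e-05). CIRBP, an RNA-binding protein induced by cold, fell from 9.10, 9.13 and 9.09 to 8.02, 8.33 and 7.89, a change of -1.03 ± 0.12. TXNIP, the thioredoxin-interacting protein that restrains glucose uptake, was among the genes with the highest signal. It fell from 11.21, 11.35 and 11.44 to 10.47, 10.54 and 10.38 (-0.87 ± 0.10), with all 15 probesets lower.

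**Figure D1:**
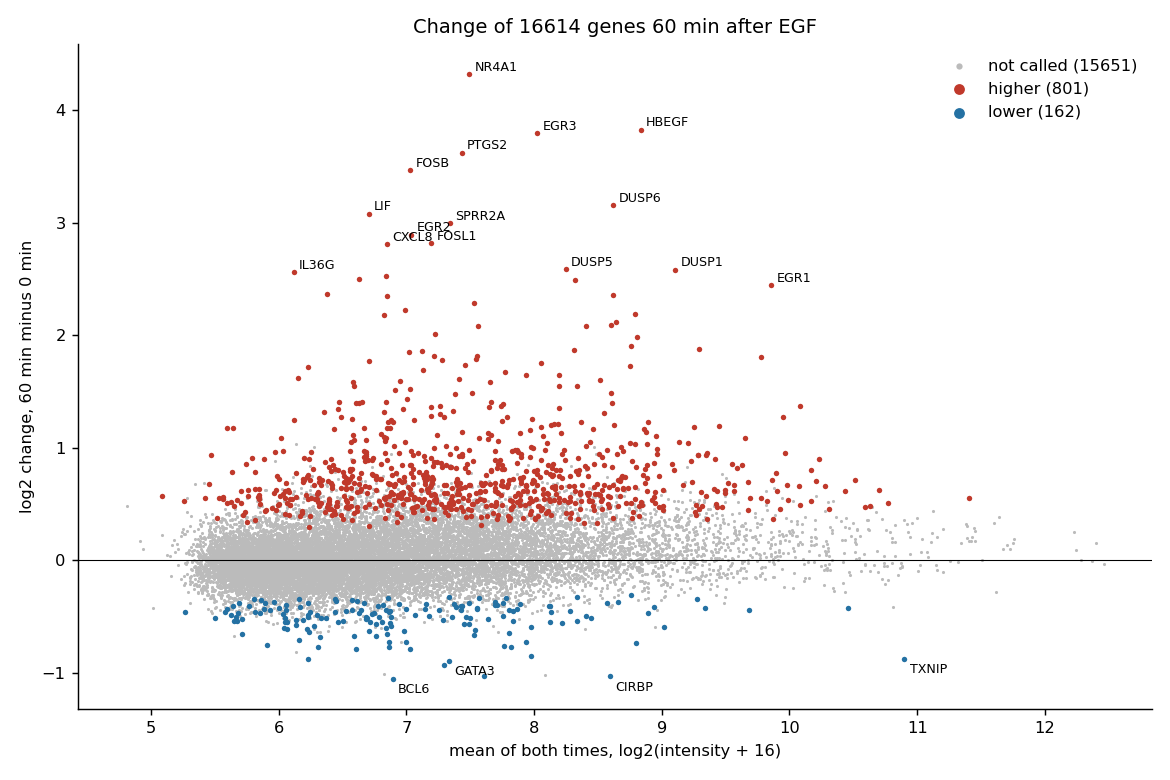
Change between 60 and 0 min against the mean of both times for the 16614 genes, both on the log2(intensity + 16) scale, with called genes in red (801 higher) and blue (162 lower). NR4A1 stands highest at 4.32 and BCL6 lowest among the labelled falls at -1.05.

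Of the 16614 genes, 963 were called, which is 5.8% of those tested. The rises outnumbered the falls: 801 genes (4.82%) were higher and 162 (0.975%) were lower. Among the rises, 653 reached 0.5 log2 units, 152 reached 1, 30 reached 2 and 7 reached 3, with a median of 0.67. Of the falls, 76 reached 0.5 and 3 reached 1, with a median of -0.49. The arrays of both times did not overlap in 793 of the higher and 161 of the lower genes, against 3969 (23.9%) of all genes tested. These called genes had a median of 13 (higher) and 14 (lower) probesets, against 12 over all genes. At least 75% of a gene's probesets moved in the direction of the call in 728 of the higher genes (90.9%) and in 124 of the lower ones (76.5%).

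The number of calls depended on single arrays. Without 60 min replicate C the calls were 403 higher and 51 lower, without 0 min replicate A 515 and 92, and without 60 min replicate A 528 and 86, while leaving out 0 min replicate B gave 630 and 97. A total of 362 higher and 27 lower genes were called in every one of the 6 refits that left out 1 array of either time. The arrays also differed in an index that sets named against unnamed probesets, as the gap between their median log2 values. It was 1.212, 1.244 and 1.25 at 0 min and 1.319, 1.278 and 1.338 at 60 min, so the groups did not overlap. With this index as a covariate the calls were 570 higher and 281 lower, of which 519 and 106 were calls of the plain fit, and every one of the 801 and 162 genes kept its sign. Centring each array on its median gene gave 741 higher and 283 lower. The part of the index in the counts was not tested beyond these fits. The genes of 13 reference transcripts such as GAPDH and ACTB had a median change of 0.22 and none was called. With the index as a covariate that median was 0.06. The median over all genes was 0.03.

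**Figure D2:**
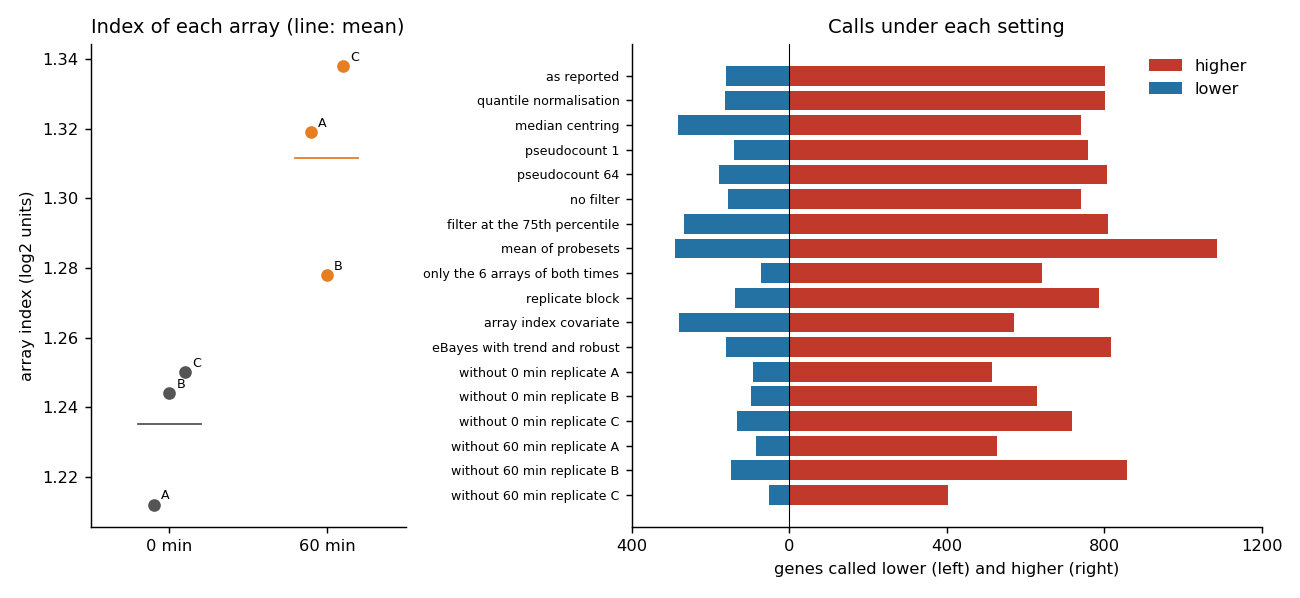
Left, the array index (log2 units) of the 3 arrays per time, with the mean as a line: 0 min lies between 1.212 and 1.25 and 60 min between 1.278 and 1.338. Right, genes called lower and higher under each setting; the lowest counts, 403 higher and 51 lower, came without 60 min replicate C.

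Markers of basal mammary cells had high values. All 18 basal mammary markers measured, among them KRT5, KRT14 and TP63, were above the upper quartile of gene values at 0 min, with a median of 10.31. Their mean was between 10.08 and 10.17 on the untreated arrays and between 10.31 and 10.36 on the treated ones, without overlap. The mean of the 13 reference genes did not overlap either, at 9.2 to 9.24 untreated and 9.29 to 9.57 treated. The median change of the basal markers was 0.10, and 0.05 with the array index as a covariate. Of 12 luminal markers 5 stood above the upper quartile and 3 below the lower one. Of 12 blood cell markers none was above it and 4 were below the lower quartile. The mean of the blood markers was between 6.12 and 6.25 on the untreated arrays and between 6.08 and 6.14 on the treated ones, and none was called. Of 14 fibroblast markers 3 stood above the upper quartile and 7 below the lower one. The mean of the 14 was between 6.60 and 6.67 before and 6.62 and 6.70 after EGF. Probesets differ in how brightly they report a transcript, so these levels rank genes only roughly.

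Of the 960 genes in the 46 lists used below, 893 were measured, 213 rose (23.9%) and 12 fell (1.34%). Over all genes tested 4.82% rose and 0.975% fell, and the counts of each list are to be read beside these shares. The lists were drawn up for this pathway and tissue with earlier results of these arrays known. Their counts therefore describe which members moved and are not independent evidence for a theme. Unless stated otherwise, each gene named as changed kept its call when any 1 of the 6 arrays was left out. The genes noted as losing a call in this way, other than NAPB, also lost it under at least 1 other setting tried. Beyond the rule for named genes, the called genes JUN, MAFF, EGR4, IER2, KLF10, KLF6, DUSP10, DUSP2, DUSP7, DUSP16, IL1B, CCL20, IL1RN, BCL3, NFKBIA, RELB, VEGFA, MMP9, RIPK4, FBXO32, ARRDC4 and YPEL2 were chosen from the lists after their values were seen, and so were the uncalled members given as examples.

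**Figure D3:**
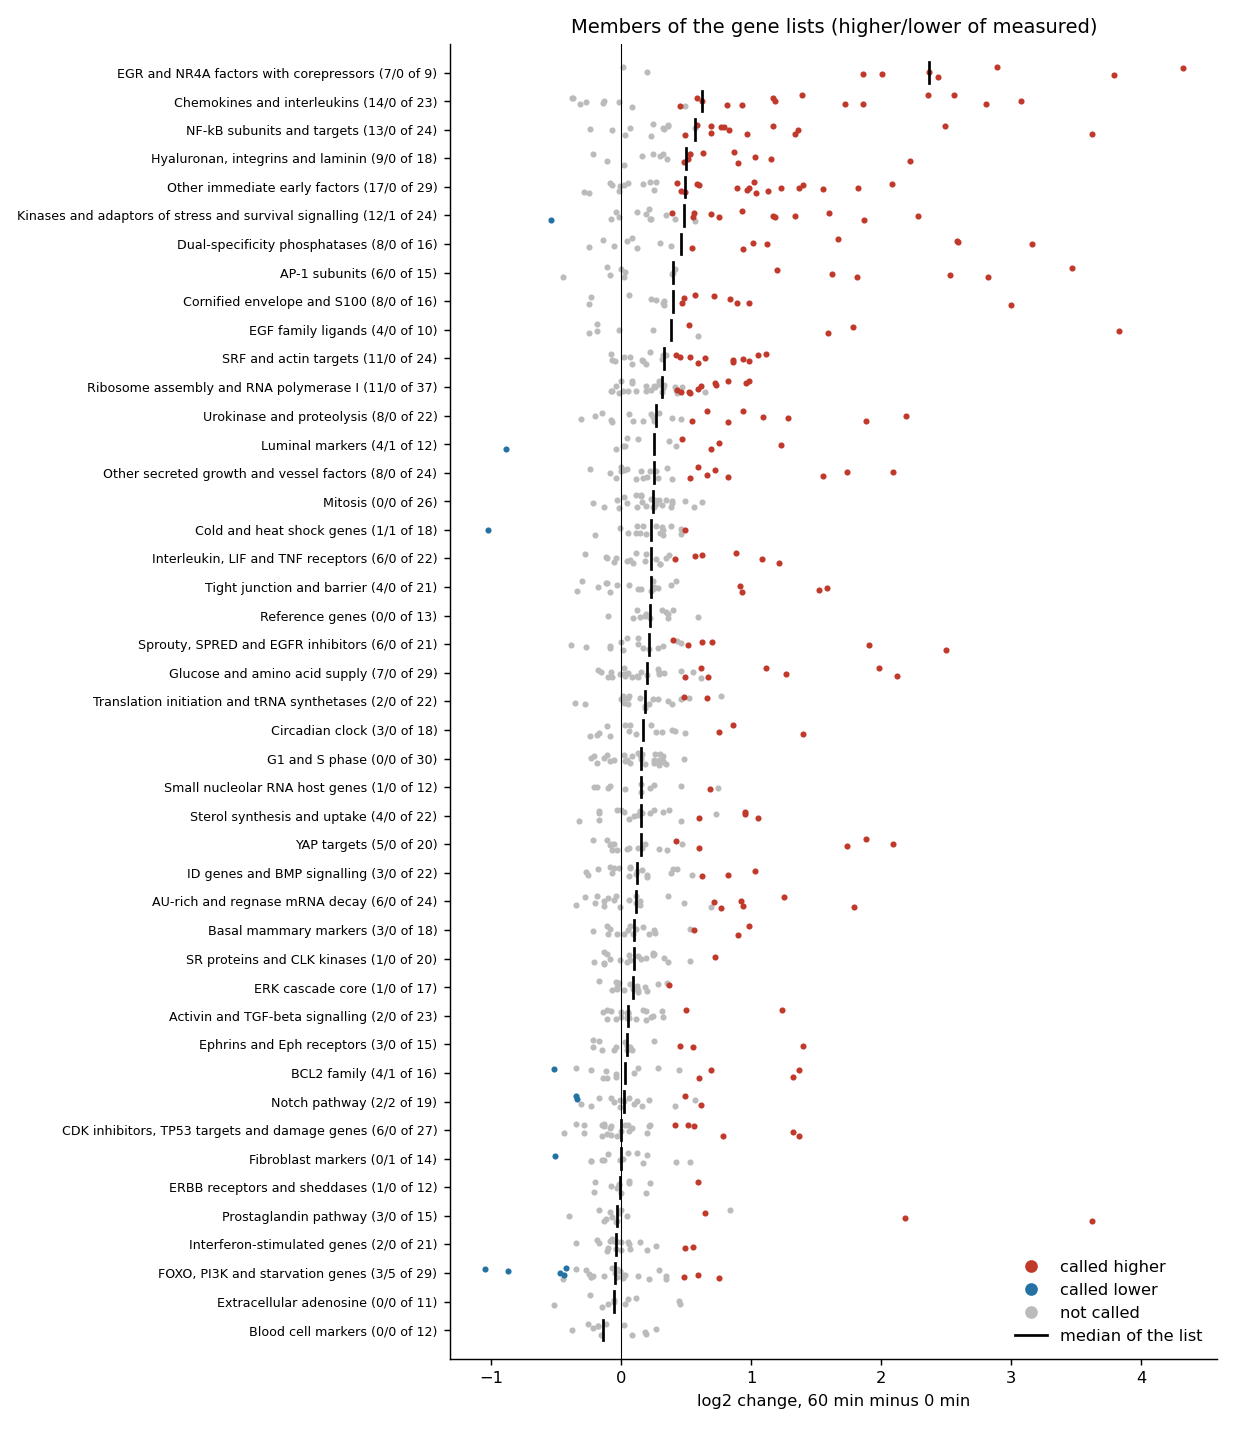
Change of each member of the gene lists described between 60 and 0 min (log2 units), with the list's median as a bar and, after each name, the members called higher and lower of those measured. The EGR and NR4A list has the highest median, 2.37, and the blood cell markers the lowest, -0.14.

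Transcription factors of the immediate early class were among the rises. In the list of EGR and NR4A factors with their corepressors, 7 of 9 measured genes rose and the median change was 2.37, between 1.51 and 2.49 over all settings tried. All 4 EGR and all 3 NR4A members rose. EGR3, a zinc finger factor, went from 6.36, 5.79 and 6.23 to 10.04, 9.88 and 9.84 (3.79 ± 0.18). EGR1, the founding member, rose from 8.55, 8.63 and 8.72 to 11.08, 11.17 and 10.99. EGR2 changed by 2.89 ± 0.17 with 7 of its 9 probesets higher and 2 lower. NR4A3 went from 5.08, 5.38 and 5.11 to 7.63, 7.44 and 7.61, and NR4A2 changed by 2.01 ± 0.15. EGR4 changed by 1.86 ± 0.17. NAB1 and NAB2, corepressors that bind EGR proteins and are themselves EGR targets, read 0.20 and 0.01 and were not called.

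AP-1 is the dimeric factor built from FOS and JUN proteins, with MAF and ATF proteins as relatives. Of its 15 measured subunits 6 rose and none fell, with a median of 0.40 that lay between 0.27 and 1.33 over all settings tried. FOSB rose from 5.48, 5.26 and 5.15 to 8.93, 8.86 and 8.50 (3.47 ± 0.12). FOSL1, which encodes FRA-1, rose from 6.06, 5.66 and 5.64 to 8.68, 8.59 and 8.54 (2.82 ± 0.14). FOS itself read 5.68, 5.99 and 5.06 before EGF and 7.91, 8.52 and 7.88 after it. Its change of 2.53 ± 0.21 was measured on the way down, since the mean was 9.89 at 20 min and 10.46 at 40 min. JUNB rose from 8.88, 8.88 and 8.86 to 10.52, 10.64 and 10.88, a change of 1.81 ± 0.12. MAFF, a small MAF protein, and JUN rose by 1.62 ± 0.18 and 1.20 ± 0.12. FOSL2 read 0.02, JUND 0.40 and ATF3 0.41, none of them called. Under other settings up to 9 of the 15 subunits were called higher.

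Of 29 other immediate early factors 17 rose and none fell, with a median of 0.49. Without 60 min replicate A the number was 12. IER3, a short-lived survival protein, rose from 7.31, 7.48 and 7.30 to 9.41, 9.51 and 9.41. CSRNP1, a nuclear protein of cysteine- and serine-rich type, changed by 1.82 ± 0.14. IER2 rose by 1.55 ± 0.18, BHLHE40, a clock-linked repressor, by 1.40 ± 0.18, and ETV3, an ETS repressor, by 0.97 ± 0.10. The Krüppel-like factors split: KLF10 rose by 1.23 ± 0.14 and KLF6 by 1.13 ± 0.15, whereas KLF5 read -0.25 and KLF2 -0.01 and were not called. MCL1, an antiapoptotic member of the BCL2 family, rose from 9.26, 9.54 and 9.40 to 10.73, 10.70 and 10.87. HES1, a Notch target, changed by 0.49 ± 0.12, and this call was lost without 0 min replicate A (0.43), without 0 min replicate C (0.45) or without 60 min replicate A (0.37).

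Genes whose products act back on the pathway also rose. The dual-specificity phosphatases remove the activating phosphates from MAP kinases. Of 16 measured, 8 rose and none fell, with a median of 0.46. DUSP6, the cytoplasmic phosphatase of ERK, went from 7.17, 6.99 and 6.97 to 10.25, 10.19 and 10.16. This change of 3.16 ± 0.11, 8.91-fold on this scale, was among the 7 that reached 3 log2 units. DUSP5, a nuclear phosphatase of ERK, rose from 7.26, 6.65 and 6.95 to 9.68, 9.61 and 9.33, and DUSP1 from a mean of 7.81 ± 0.31 to 10.39 ± 0.06 (SD, n = 3). DUSP4 rose by 1.67 ± 0.11, DUSP10, which acts on JNK and p38, by 1.12 ± 0.15, and DUSP2 by 1.01 ± 0.15. DUSP7 and DUSP16 rose by 0.94 ± 0.11 and 0.54 ± 0.11. DUSP3, DUSP9, DUSP14, DUSP18 and DUSP22 lay between -0.14 and 0.12 and were not called.

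Sprouty and SPRED proteins and other inhibitors of EGFR signalling formed a more uneven list, with 6 of 21 members higher, none lower and a median of 0.21. SPRY4 rose from 4.95, 5.51 and 5.66 to 7.93, 7.63 and 8.07, so all 3 treated arrays were more than 1 log2 unit above every untreated one. ERRFI1, which encodes the EGFR inhibitor MIG6, rose from 7.71, 7.91 and 7.78 to 9.77, 9.61 and 9.76. SPRED2 changed by 0.70 ± 0.14 and SOCS3 by 0.51 ± 0.11. SOCS3 lost its call with a pseudocount of 1 (0.52) and with a filter at the 75th percentile (0.34). SPRY1, SPRED1 and LRIG1 read -0.27, -0.09 and 0.13 and were not called. In the kinase cascade itself 1 of 17 genes of the ERK core was called higher (5.88%), near the 4.82% of all genes. The call was that of SHC1, an adaptor of EGFR, at 0.37 ± 0.10. Each of the 6 refits without 1 array lost it, with changes between 0.35 and 0.38. EGFR read -0.02, MAP2K1 0.09 and MAPK3 0.28.

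Some ligands of the receptor rose. Of 10 EGF family ligands measured, 4 rose, with a median of 0.38, and 3 with the array index as a covariate. Beside HBEGF, TGFA went from 6.33, 6.45 and 6.39 to 8.20, 8.01 and 8.30, and epiregulin (EREG) from 6.92, 6.84 and 6.82 to 8.52, 8.50 and 8.32. The treated and untreated values of both were well apart. NRG1, a ligand of ERBB3 and ERBB4, changed by 0.52 ± 0.13, a call lost without 0 min replicate A (0.38), 60 min replicate A (0.47) or 60 min replicate C (0.49). EGF and BTC read -0.19 and -0.02. Among 12 receptors and shedding enzymes ADAM17, the protease that frees TGFA and HBEGF from the membrane, was the sole call, at 0.59 ± 0.14. That is 8.33% of the list, against 4.82% of all genes called higher. The ADAM17 call was lost without 0 min replicate A (0.46) or 60 min replicate C (0.55). ERBB2 and ERBB3 read -0.21 and -0.20 and were not called. Whether ligands and receptors differ was not tested.

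Inflammatory signals were the next group. Of 23 chemokines and interleukins measured, 14 rose and none fell, with a median of 0.62. Where only brighter probesets were kept the number was 9. CXCL8, a neutrophil chemokine, went from 5.79, 4.84 and 5.70 to 8.34, 8.19 and 8.21. IL36G, an epithelial cytokine of the interleukin 1 family, rose from 4.46, 4.72 and 5.33 to 7.54, 7.19 and 7.47. IL1A read 7.07, 7.51 and 7.72 before and 9.85, 9.54 and 9.99 after EGF. The untreated means of IL36G (4.84), LIF (5.16), CCL20 and IL24 (5.00 each) lay below the probeset threshold of 5.18. These 4 of the 14 passed the filter through the arrays where they are high, so their calls are no independent support for the count. Over all genes, 9 of the 801 rises had an untreated mean below that threshold. The filter used each probeset's mean over all arrays. Genes with untreated means a little higher, such as IL20 (5.37) and CXCL8 (5.44), may therefore also hold probesets kept only through treated arrays. How many such genes there were, in this list or in others, was not counted. In CXCL8, IL36G and IL1A the untreated arrays differed from each other more than the treated ones did. CXCL2 rose by 1.86 ± 0.14, IL20 by 1.72 ± 0.13, IL1B by 1.39 ± 0.13 and CCL20 by 1.18 ± 0.13. IL1RN, the receptor antagonist that counters IL1A and IL1B, rose by 1.17 ± 0.17. CXCL1, CXCL2 and CXCL3 are closely similar genes, and whether their probesets cross-react was not tested. CXCL5, CSF2 and IL11 read 0.08, -0.37 and -0.27 and were not called.

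The NF-kB list held 13 risen genes of 24, none fell, and its median was 0.57. TNFAIP3, which encodes A20, an inhibitor of NF-kB signalling, rose from 6.96, 7.22 and 7.04 to 9.57, 9.56 and 9.57. The treated arrays agree to within 0.01. NFKBIZ changed by 1.36 ± 0.16 and MAP3K8, a kinase upstream of MEK, by 1.34 ± 0.14. BCL3 rose by 0.97 ± 0.13 and NFKBIA, the inhibitor IkB alpha, by 0.83 ± 0.13. RELB rose by 0.58 ± 0.12, while the subunits NFKB1 and RELA read 0.57 and 0.32 and were not called. Of 22 receptors of interleukins, LIF and tumour necrosis factors, 6 rose, with 2 left without 60 min replicate C. OSMR, the oncostatin M receptor, rose from 7.45, 7.51 and 7.79 to 8.80, 8.68 and 8.91, and TNFRSF12A by 1.08 ± 0.14. In the prostaglandin list 3 of 15 genes rose. Beside PTGS2 this was PTGER4, a prostaglandin receptor, which went from 5.90, 5.63 and 5.67 to 7.93, 7.96 and 7.85, and PTGES3 at 0.64 ± 0.18. The last call was lost without 0 min replicates A (0.53) or B (0.58) and without 60 min replicates A (0.62) or C (0.50). PTGES and PTGS1 read -0.13 and 0.04.

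Growth and vessel factors other than EGF ligands had 8 rises among 24 genes. CCN2, a matricellular protein also known as CTGF, went from 7.70, 7.60 and 7.37 to 9.81, 9.87 and 9.25, and CCN1 changed by 1.74 ± 0.13. EDN1, the precursor of endothelin, rose from 6.05, 5.78 and 5.60 to 7.32, 7.38 and 7.38. PTHLH, the parathyroid hormone-related peptide, rose by 0.82 ± 0.11 and VEGFA by 0.59 ± 0.11. In the list of YAP targets, which also holds CCN1, CCN2 and F3, 5 of 20 genes rose. ANKRD1, AMOTL2 and AJUBA read 0.13, -0.03 and -0.07 and were not called.

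Cell surface proteolysis and adhesion changed in several members. Of 22 genes of urokinase and proteolysis 8 rose and none fell. PLAUR, the urokinase receptor, rose from 7.73, 7.60 and 7.76 to 9.99, 9.92 and 9.75, and its ligand PLAU from 9.21, 9.15 and 8.95 to 10.22, 10.09 and 10.27. F3, tissue factor, changed by 1.88 ± 0.15 and SERPINB1, a protease inhibitor, by 1.28 ± 0.12. MMP9 rose by 0.54 ± 0.12, while MMP1, MMP3 and MMP14 read 0.17, 0.06 and -0.20 and were not called. Among 18 genes of hyaluronan, integrins and laminin 9 rose, with a median of 0.50. HAS3, a hyaluronan synthase, went from 5.92, 5.75 and 5.97 to 8.12, 8.22 and 7.97. ITGA2, an integrin chain of the collagen receptor, rose from 8.09, 8.52 and 8.49 to 9.38, 9.29 and 9.52. LAMB3, a laminin chain of the epithelial basement membrane, rose by 0.90 ± 0.10 with all 34 probesets higher. SEMA7A, a membrane-anchored semaphorin outside these lists, rose from 5.84, 5.71 and 5.48 to 7.98, 7.89 and 8.19.

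SRF, the factor that couples actin dynamics to transcription, was higher, and so were 10 other genes of its list of 24 (median 0.33). The count was 7 without 60 min replicate A. SRF read 7.40, 7.15 and 7.55 before and 8.46, 8.22 and 8.34 after EGF. VCL, which encodes the focal adhesion protein vinculin, rose from 8.99, 8.69 and 8.75 to 9.54, 9.92 and 9.79. All 39 of its probesets were higher. FHL2 and PDLIM5, LIM proteins of the actin cytoskeleton, rose by 0.86 ± 0.10 and 1.11 ± 0.16. ACTB, ACTG1 and FLNA read 0.19, 0.17 and 0.02 and were not called.

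Regulators of messenger RNA decay rose in 6 of 24 cases, with a median of 0.11. ZFP36, which encodes tristetraprolin, a protein that binds AU-rich elements and promotes decay, rose from 6.92, 6.70 and 6.33 to 8.30, 8.61 and 8.41. ZC3H12A, the endonuclease regnase-1, rose from 7.35, 7.50 and 7.23 to 8.70, 8.67 and 8.46. ZFP36L1 and ZFP36L2 changed by 0.94 ± 0.11 and 0.92 ± 0.14. Deadenylase and decapping genes such as CNOT1, PAN2 and DCP2 read -0.13, -0.28 and -0.06 and were not called.

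Kinases and adaptors of stress and survival signalling gave 12 rises and 1 fall among 24 genes, with a median of 0.48. TRIB1, a pseudokinase that binds MEK and ubiquitin ligases, went from 6.27, 6.24 and 6.65 to 8.69, 8.60 and 8.72. PIM1, a survival kinase, rose from 7.05, 7.59 and 7.48 to 9.40, 9.15 and 9.18. PHLDA1 changed by 1.60 ± 0.13 and SIK1, a salt-inducible kinase, by 1.18 ± 0.11. The fall was RIPK4, a kinase of keratinocyte differentiation, at -0.54 ± 0.12. That call was lost without 0 min replicate A (-0.45) or 60 min replicate C (-0.46). In the BCL2 family 4 of 16 genes, MCL1 among them, rose and 1 fell. BCL2L1 and BAK1 rose by 0.60 ± 0.10 and 0.69 ± 0.13, and PMAIP1, which encodes NOXA, an antagonist of MCL1, rose from 5.82, 5.59 and 5.67 to 6.65, 7.10 and 7.29. BCL2L11, the proapoptotic BIM, read 7.82, 7.93 and 7.95 before and 7.24, 7.39 and 7.49 after EGF, a change of -0.52 ± 0.15 (adjusted p = 0.036). All 6 refits without 1 array lost this call, with changes between -0.58 and -0.46. Thus both pro- and antiapoptotic genes were among the rises.

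Genes of metabolic supply changed in a few members. Of 29 measured, 7 rose. SLC20A1, a phosphate importer, went from 7.29, 7.76 and 7.69 to 9.60, 9.59 and 9.91. ODC1, the rate-limiting enzyme of polyamine synthesis, rose from a mean of 7.81 ± 0.21 to 9.80 ± 0.11 (SD, n = 3). SLC2A3, a glucose transporter, and PFKFB3, which makes an activator of glycolysis, rose by 1.27 ± 0.16 and 1.11 ± 0.12. SLC2A1, LDHA and SLC7A5 read 0.20, 0.28 and -0.07 and were not called. In the sterol list 4 of 22 genes rose, among them INSIG1, a regulator of sterol synthesis, at 0.95 ± 0.15 and HMGCS1, a synthase early in the pathway, at 0.95 ± 0.16. Of 37 genes of ribosome assembly and RNA polymerase I 11 rose, with a median of 0.31. This count was 6 without 60 min replicate C and 7 with the array index as a covariate. NIP7 rose from 8.11, 8.09 and 7.80 to 8.84, 8.66 and 8.99. GNL2 and WDR43, which act in ribosomal subunit assembly, rose by 0.59 ± 0.11 and 0.98 ± 0.20.

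Cell cycle genes were not called at 60 min. None of 30 G1 and S phase genes and none of 26 mitotic genes passed the test. Over all genes 5.8% were called, so lists of this size would hold few calls at that share. Their median changes were 0.15 and 0.24 in the plain fit and 0.02 and 0.00 with the array index as a covariate. CCND1, the D-type cyclin classically raised by growth factors, read -0.13 and E2F1 -0.19. Under other settings up to 2 G1 and S phase genes and up to 3 mitotic genes were called higher.

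Signals of other growth factor families moved in single members. ID1, an inhibitor of basic helix-loop-helix factors and a target of BMP signals, rose from 8.26, 8.58 and 7.98 to 9.32, 9.36 and 9.24. BAMBI, a decoy receptor, changed by 0.82 ± 0.12 and BMP2 by 0.62 ± 0.12. ID2 and ID3 read 0.38 and -0.18 and were not called. SKIL, a repressor of SMAD proteins, rose from 6.72, 7.17 and 7.50 to 8.25, 8.36 and 8.49, and INHBA, a subunit of activin, by 0.50 ± 0.11. In the Notch list JAG1 rose by 0.61 ± 0.10, while JAG2 and the receptor NOTCH1 changed by -0.34 ± 0.10 and -0.35 ± 0.10. Without 0 min replicate A those falls were -0.29 and -0.31 and no longer called, and the same held without 0 min replicate B (-0.33 and -0.35), 60 min replicate A (-0.31 for both) or 60 min replicate C (-0.28 and -0.32). NOTCH1 also lost its call without 0 min replicate C (-0.37). EPHA2, a receptor of ephrins, rose from 7.83, 7.93 and 7.98 to 9.40, 9.25 and 9.28. EPHB4 and EPHA4 read -0.22 each and were not called. Of the clock genes PER1, PER2 and BHLHE40 rose, and PER3, CRY1 and CRY2 read 0.03, 0.23 and -0.19.

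Epithelial differentiation genes were among the rises. Of 16 genes of the cornified envelope and S100 group 8 rose, with a median of 0.40. The number was 5 without 0 min replicate C. SPRR2A, a small proline-rich envelope protein with near-identical relatives, went from 5.57, 6.53 and 5.43 to 9.05, 8.58 and 8.90 on 3 probesets, and whether those also report its relatives was not tested. IVL, involucrin, rose by 0.89 ± 0.13 and S100A2 by 0.98 ± 0.15. Among barrier genes CLDN4, a claudin, rose from 5.89, 5.77 and 5.71 to 7.32, 7.13 and 7.67, and OVOL1, a factor that keeps epithelial identity, by 1.52 ± 0.14. CLDN1, CLDN7 and CDH1 read 0.38, -0.03 and 0.15 and were not called.

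Luminal markers moved in both directions. GATA3, a luminal lineage factor, read 7.93, 7.62 and 7.78 before and 6.81, 6.87 and 6.98 after EGF, a change of -0.89 ± 0.10 with 13 of 14 probesets lower. FOXA1, another luminal factor, rose from 6.37, 6.19 and 6.27 to 7.76, 7.42 and 7.34. XBP1 changed by 0.75 ± 0.12. Of 12 measured luminal genes 4 rose and 1 fell, and their mean was between 7.02 and 7.11 on the untreated arrays and 7.24 and 7.43 on the treated ones. The number of rises was 2 with only the 6 arrays in the fit and 2 with the array index as a covariate. ELF3 and TFF3, also called higher, kept their calls in 2 and 3 of the 6 refits without 1 array. ESR1, PGR and KRT8 read 0.01, -0.04 and 0.04 and were not called. Whether a change in the mix of cells took part in these values was not tested.

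Of the listed genes 1.34% fell, against 0.975% of all genes. In the list of FOXO, PI3K and starvation genes 5 of 29 fell (17.2%) and 3 rose (10.3%), with a median of -0.05. The number of falls lay between 2 and 8 over all settings tried. Beside BCL6 and TXNIP the falls were FBXO32, a ubiquitin ligase of atrophying muscle and a FOXO target, ARRDC4, an arrestin relative of TXNIP, and YPEL2, a Yippee protein of little-known function. FBXO32 read 9.05, 9.08 and 9.23 before and 8.63, 8.78 and 8.55 after EGF (-0.47 ± 0.12), and all 14 probesets were lower. Its call was lost without 0 min replicate C (-0.41), 60 min replicate A (-0.46) or 60 min replicate C (-0.42). ARRDC4 (-0.44 ± 0.11) lost its call without 0 min replicate C (-0.39), 60 min replicate A (-0.41) or 60 min replicate C (-0.44), and YPEL2 (-0.43 ± 0.10) without 60 min replicate C (-0.41). The rises included CITED2, a transcriptional coregulator, at 0.75 ± 0.10 and IRS2, an insulin receptor substrate, at 0.48 ± 0.09. The FOXO targets SESN1, PDK4 and CCNG2 read -0.23, -0.22 and -0.25 and were not called.

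The 25 largest falls included, outside the lists, MEAK7, an activator linked to mTOR, and ZBED5, derived from a transposase. MEAK7 went from 8.49, 8.31 and 8.41 to 7.23, 7.82 and 7.59, with 22 of 25 probesets lower. ZBED5 fell from 8.23, 8.22 and 8.16 to 7.17, 7.66 and 7.47. In both, 60 min replicate A stood lowest. With a filter at the 75th percentile both lost their call, at -0.35 for MEAK7 and -0.45 for ZBED5. TMEM138, with 14 probesets, changed by -0.78 and read 0.08 under that filter. IRX5, an Iroquois homeobox factor, fell from 8.40, 8.31 and 8.19 to 7.68, 7.55 and 7.49, with all 11 probesets lower. Several of the large falls rested on few or discordant probesets. UQCRB had 5 probesets higher and 4 lower, AKR1C2, an aldo-keto reductase with near-identical relatives, 2 and 2, and the pseudogene OR7E140P 2 and 2. OR7E140P lost its call without 60 min replicate C (-0.56). FAM86B1, FGF7P6 and SDHAP1 are members of duplicated families, and whether their probesets report relatives was not tested. With the filter at the 75th percentile UQCRB read 0.00, AKR1C2 -0.20 and FAM86B1 -0.23, none of them called. SIX2 changed by -0.76 and LPL by -0.66, and each was called in 1 of 6 refits. SIX2 kept its call without 60 min replicate A (-0.96) and read between -0.85 and -0.57 without any other array. LPL kept it without 60 min replicate B (-0.82) and read between -0.72 and -0.57 without any other.

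**Figure D4:**
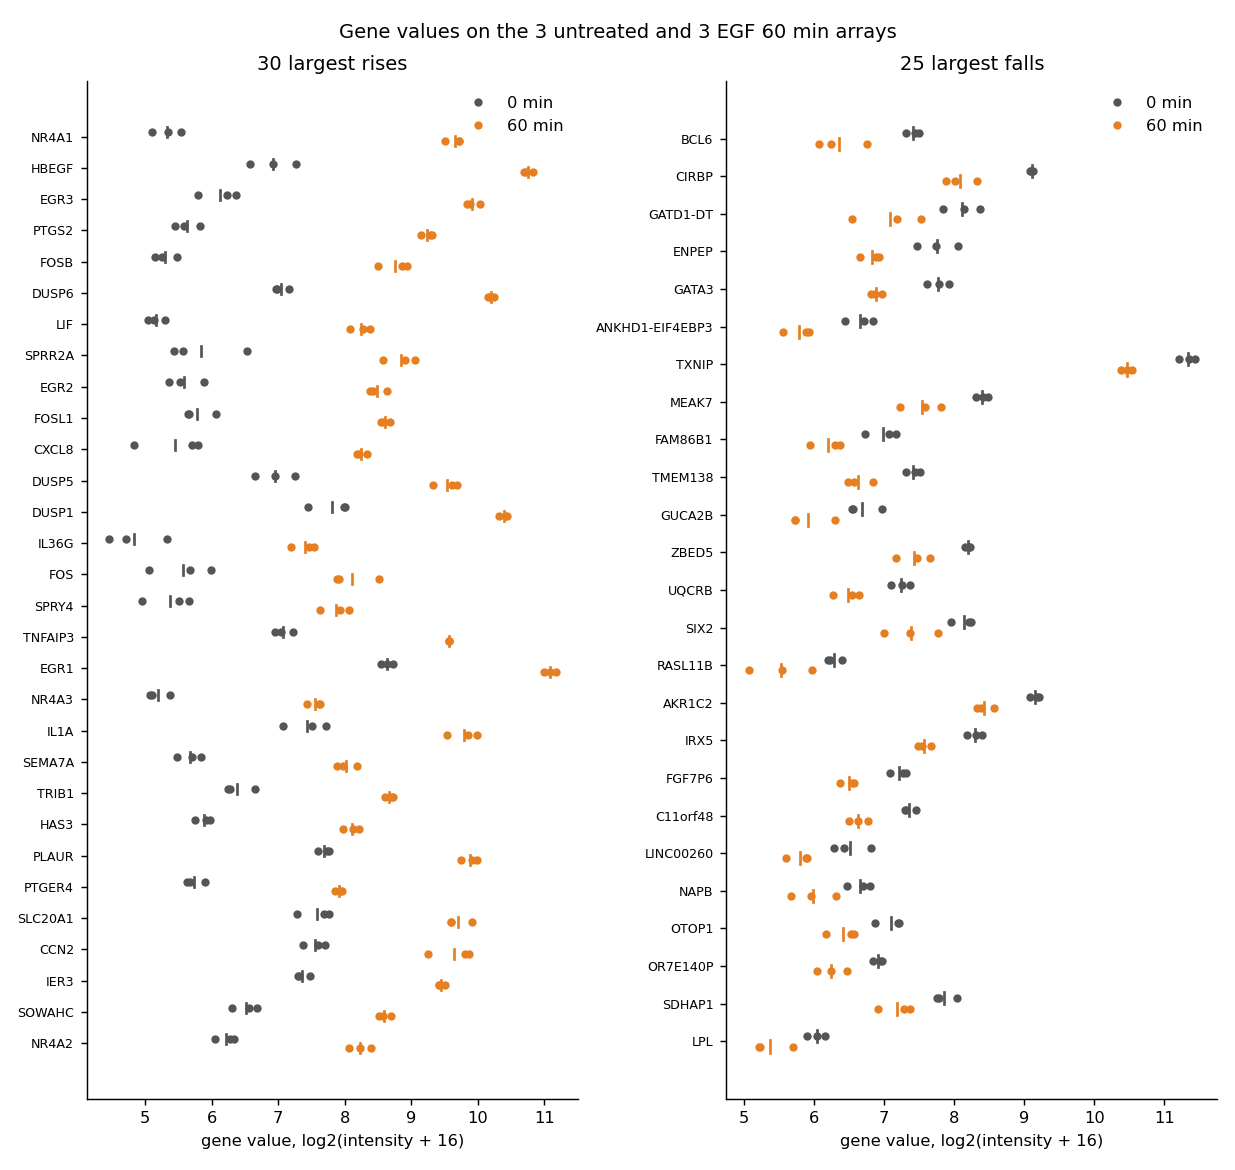
Gene values of the 30 largest rises (left) and the 25 largest falls (right) on each of the 3 untreated (grey) and 3 EGF 60 min (orange) arrays, with means as bars, in log2(intensity + 16). The treated and untreated points of each gene do not overlap, which the choice of these genes required; the gap is largest for NR4A1, from a highest untreated value of 5.54 to a lowest treated one of 9.51.

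The arrays at 40 and 120 min, which took no part in the change between 0 and 60 min, give a second comparison across that time, in which the same genes can be followed. Over all 16614 genes, 1076 (6.48%) were higher at 120 than at 40 min and 350 (2.11%) were lower. Together these 1426 calls fell to 824 without 40 min replicate B, 909 without 40 min replicate C and 859 without 120 min replicate C. Of the 801 genes higher at 60 min, 273 were also called higher at 120 than at 40 min, which is 34.1% of the former and 25.4% of the latter calls. Another 75 were lower at 120 than at 40 min, 9.36% of the genes higher at 60 min and 21.4% of those lower at 120 than at 40 min. The other 453 (56.6%) had no call between 40 and 120 min. Of the 162 genes lower at 60 min, 22 were lower and 6 higher at 120 than at 40 min. Of the 152 genes whose rise at 60 min reached 1 log2 unit, 67 had no call between 40 and 120 min. Another 43 were higher and 42 lower at 120 than at 40 min.

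The 42 genes lower at 120 than at 40 min had a median change against 0 min of 1.31 at 20 min, 1.78 at 40 min, 1.73 at 60 min and 0.65 at 120 min. By 480 min it was 0.14. NR4A1 had means of 8.60, 9.49, 9.65 and 6.48 at 20, 40, 60 and 120 min and was back at 5.32 by 240 min, against 5.33 untreated. The highest mean of NR4A1 was thus at 60 min, as it was for EGR3, PTGS2 and PTGER4, which were also lower at 120 than at 40 min. The means at 40 and 60 min were close for EGR3 (9.86 and 9.92) and PTGS2 (9.23 and 9.24). Whether these 2 times differ was not tested. FOS had its highest mean, 10.46, at 40 min, as did DUSP1 at 11.66 and CCN2 at 10.24. EGR1, EGR2, JUNB, ZFP36 and IER2 were also lower at 120 than at 40 min. These are the classic immediate early genes and early feedback regulators.

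The 43 genes higher at 120 than at 40 min had a median of 0.40 at 20 min, 0.78 at 40 min, 1.28 at 60 min and 1.84 at 120 min, and 1.44 remained at 480 min. DUSP6 had means of 8.22, 9.27, 10.20 and 10.68 at 20, 40, 60 and 120 min. SPRY4 went through 5.74, 6.67, 7.88 and 8.70. TGFA was barely above its untreated mean of 6.39 at 20 min (6.58) and 40 min (6.86), and reached 8.17 at 60 min and 8.66 at 120 min. GEM, a small GTPase of the RGK group, rose by 0.90 ± 0.15 at 60 min and so is not among the 43. Its means were 5.62, 5.53, 6.33 and 7.72 at 20, 40, 60 and 120 min and 5.68 at 240 min. Without a filter GEM read 0.50 at 60 min and was not called. Named for their course after the values had been seen, TMCC3, HOMER1, a synaptic scaffold protein, and PLA2G4E, a phospholipase, rose by 1.23 ± 0.11, 0.85 ± 0.18 and 1.34 ± 0.14 at 60 min. Their changes between 40 and 120 min were 1.84, 1.88 and 1.76. HOMER1, at 0.85, is not among the 43 either. Members of the same list differed in their calls: DUSP1, DUSP2 and DUSP5 were lower at 120 than at 40 min, and DUSP4, DUSP6 and DUSP7 higher.

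HBEGF was highest at 60 min, with means of 10.24, 10.75 and 10.30 at 40, 60 and 120 min, and no call between 40 and 120 min. The same was true of PLAUR, IER3, TRIB1 and SEMA7A. Among the falls, FBXO32 had barely begun: its means were 9.01 at 40 min, 8.65 at 60 min, 6.40 at 120 min and 5.14 at 480 min. BCL2L11 went from 7.79 at 40 min through 7.37 to 6.72 at 120 min, and TXNIP from 11.06 through 10.46 to 10.25. AKR1C2 and NAPB, a SNARE attachment protein, were lower at 60 min and higher again at 120 than at 40 min, by 0.78 and 0.82. NAPB read 6.71, 6.47 and 6.80 untreated and 5.67, 5.96 and 6.32 at 60 min, with 21 of 22 probesets lower, and lost its call without 60 min replicate A (-0.52).

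**Figure D5:**
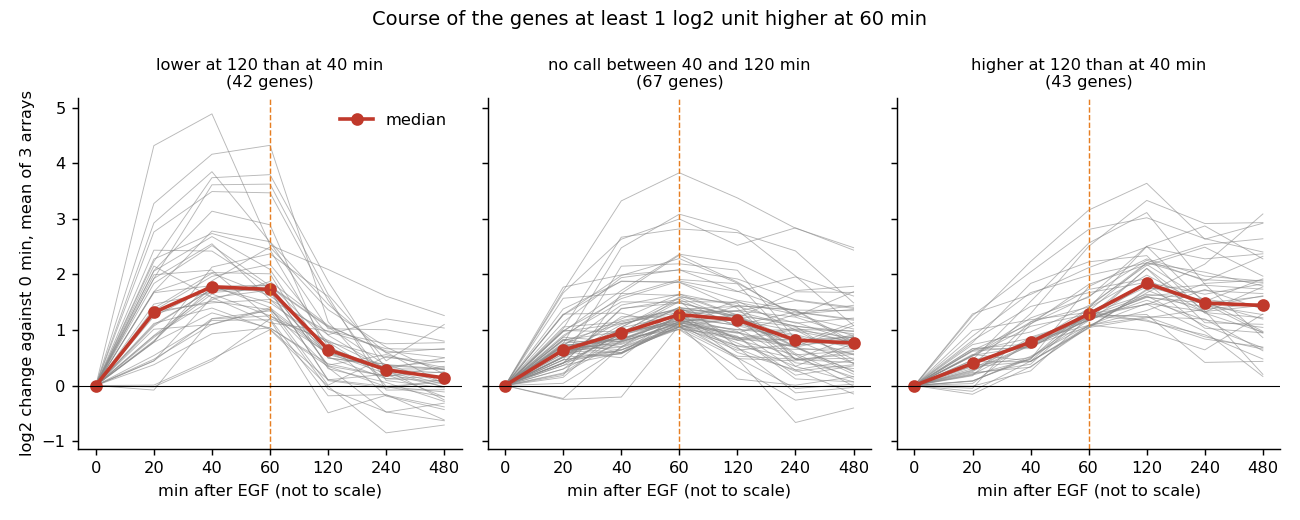
Mean change against 0 min (log2 units, 3 arrays per time) over the 7 times for the 152 genes at least 1 log2 unit higher at 60 min, divided by the call between 40 and 120 min, with each gene in grey and the median in red. At 120 min the medians are 0.65, 1.18 and 1.84 from left to right; the dashed line marks 60 min, by which the genes were chosen.

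The promoters of the called genes were searched for 6 motifs on both strands. RefSeq's table, which covers 250 bases before to 50 after the start, held 635 of the 801 higher genes, 127 of the 162 lower ones and 13067 of the 16614 tested, matched by symbol. The full cyclic AMP response element (CRE), TGACGTCA, lay in 4.57% of the promoters of higher genes, 1.57% of those of lower genes and 2.74% of all tested, and in 1.98% of the whole table. Among 126 promoters of genes higher by at least 1 log2 unit it was in 8, or 6.35%. The AP-1 site TGANTCA was in 6.93%, 2.36% and 5.2% of higher, lower and all tested genes, and the NF-kB site in 10.1%, 4.72% and 6.59%. The CArG box, which SRF binds, was in 2.2%, 0.787% and 1.16%. The ETS core CCGGAAG was in 20.0%, 13.4% and 15.7%, but in 11.1% of the promoters of genes higher by at least 1 log2 unit. For TATAAA the shares were 10.6%, 2.36% and 7.28%, and 16.7% in that group. A CArG box may contain TATAAA; the other motifs can overlap only in part. In the whole table the shares were 7.76% for AP-1, 5.72% for NF-kB, 1.29% for CArG, 10.7% for ETS and 12.0% for TATAAA. A match describes letters in this window and not a bound site, and no test of these shares was made.

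The 8 CRE matches of the group higher by at least 1 log2 unit are shown, since this is the motif of CREB, a factor that kinases below ERK phosphorylate. Each line gives 30 bases on the strand of the gene, with the CRE in capitals. The genes are chosen by the motif and are not those of the rule for named genes.
DUSP1: ggcagggcgggTGACGTCAccgccccgtca
SLC25A25: ggagggagcggTGACGTCAgccctgatctt
MAFF: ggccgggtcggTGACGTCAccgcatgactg
EPHA2: gcgggcgttggTGACGTCAcgcagggcatg
SKIL: cgaggactcggTGACGTCAgagggctgtgt
ZNG1F: tcgcgatgtgaTGACGTCAggccccggcca
OXSR1: gaccagcgcagTGACGTCAgcgcgctgcgt
CCNL1: gcccggcgtggTGACGTCAgggcggaagcg
In GRCh38.p14 the windows are DUSP1 chr5:172771302-172771331 (minus), SLC25A25 chr9:128098296-128098325 (plus), MAFF chr22:38201929-38201958 (plus), EPHA2 chr1:16156102-16156131 (minus) and SKIL chr3:170357650-170357679 (plus). The others are ZNG1F chr9:41189350-41189379 (minus), OXSR1 chr3:38165477-38165506 (plus) and CCNL1 chr3:157160215-157160244 (minus). The first base of the CRE lay 125 bases upstream of the start in DUSP1, 200 in SLC25A25, 86 in CCNL1 and between 49 and 54 in the other 5. Their changes at 60 min were 2.58 ± 0.13 for DUSP1, 1.78 ± 0.14 for SLC25A25, a mitochondrial carrier, 1.62 ± 0.18 for MAFF and 1.40 ± 0.09 for EPHA2. SKIL changed by 1.24 ± 0.17, OXSR1, a kinase of the osmotic stress response, by 1.14 ± 0.18 and CCNL1, a cyclin linked to splicing, by 1.04 ± 0.20. ZNG1F, which has near-identical relatives, changed by 1.18 ± 0.25 and lost its call without 60 min replicate C (0.90). DUSP1 and SLC25A25 were lower at 120 than at 40 min, and the other 6 had no call in that interval. Whether the motif goes with a course was not tested.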

How the data were processed

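Exon array data of MCF10A cells, 3 arrays per time, were used as deposited intensities, linear values with 1 entry for each probeset on each array. Per the submitters' processing notes the authors used PLIER and Affymetrix Expression Console 1.1; for background correction and further settings, the sources used here give nothing. Of 1384231 probesets, 354600 carried 1 gene symbol in the platform annotation, 14898 several and 1014733 none; symbols were updated through RefSeq's gene list of GRCh38.p14. Intensities were transformed to log2(intensity + 16). Probesets with a mean of at least 5.18 (20.2 intensity units, the median of all) were kept, which left 261183 single-gene probesets. Gene values were the median of at least 3 of them.

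limma 3.58.1 fitted all 21 arrays with a mean for every time (R 4.3.3; files were read with the package data.table, version 1.17.8), with 14 residual and 7.08 prior degrees of freedom. Tests were two-sided, with Benjamini-Hochberg adjustment over all genes and a call at 0.05. The median replicate SD was 0.169, and precision is limited by how few arrays there are. The code was tested on simulated data.

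Alternatives tried were median centring, quantile normalisation, a pseudocount of 1 or 64, a filter at the 75th percentile or none, the mean of probesets, only the 6 arrays compared, the replicate letter as a block, the array index as a covariate, eBayes with trend and robust settings, and each array left out. The comparison, the gene lists and the rule for named genes were chosen with earlier results of these data known. Named genes were the 30 largest rises and 25 largest falls among called genes whose arrays did not overlap, up to 4 called members of each list by adjusted p, and all called members of lists with 5 or fewer. Other genes named were chosen after their values had been seen. The result of 1 list is not reported here.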

Additional observations from a re-analysis of the deposited data

Results flagged for a closer look

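Probesets without a gene name in the annotation took no part in the comparisons of genes. Of 420418 unnamed probesets with a mean above the same threshold, 12498 were called between 60 and 0 min by limma (adjusted p below 0.05 over these probesets), or 2.97%. Of these 7909 were higher and 4589 lower. Among the 261183 single-gene probesets tested in the same way, 10550 were called (4.04%), 7691 higher and 2859 lower.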

How the results depend on the processing

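The total of 963 calls kept within 1.5 times of its value under each of the 11 settings that used all 6 arrays, and leaving out 1 array gave between 454 and 1006. For the 801 higher genes that range was 403 to 858. The 162 lower genes were the less stable count: 283 with median centring, 267 with a filter at the 75th percentile, 291 with the mean of probesets, 281 with the array index as a covariate, 72 with only the 6 arrays in the fit, and between 51 and 148 with 1 array left out. Between 40 and 120 min, 769 genes in place of 1426 were called with only those 6 arrays, and between 824 and 1797 with 1 array left out. Calls of listed genes (225) lay between 167 and 296 over all settings. With a filter at the 75th percentile 7795 of 158491 unnamed probesets were called, or 4.92%, against 2.97% with the median filter. Single-gene probesets were not counted under that filter. Of the 128 higher genes named by the rule, 100 were called under every setting, and of the 29 lower ones 8. Without a filter ENPEP and LPL read 0.06 and 0.01, and with the filter at the 75th percentile TMEM138 and UQCRB read 0.08 and 0.00, in place of falls. The cause of these differences was not tested. Whether the replicate letters pair the arrays could not be decided. Deviations of 0 and 60 min arrays with the same letter correlated across genes at 0.017 (A), -0.106 (B) and 0.267 (C). The value of C was the highest of any pair, but 0 min replicate A was closer to 60 min replicate B (0.239). With so few arrays per time these values neither show nor exclude pairing. A fit with the letter as a replicate block called 787 higher and 138 lower genes, 925 in all. No detection calls were used, so values near the probeset threshold are the least certain.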

Other observations

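Neighbouring genes were counted as placed by RefSeq's gene table. Of 16493 pairs of neighbouring genes that were tested, 82 were both higher and 2 both lower at 60 min, and 9 stretches held 3 or more higher genes in a row. These stretches were looked for after the values had been seen, and whether such pairs are more frequent than the share of higher genes alone would give was not tested. On chromosome 1, S100A3, S100A2, S100A16 and S100A14, calcium-binding proteins of 1 family, stood in a row. S100A3 read 6.49, 6.42 and 6.44 before and 7.15, 6.94 and 7.16 after EGF (0.63 ± 0.13), and S100A2 changed by 0.98 ± 0.15. S100A16 (0.47 ± 0.12) and S100A14 (0.61 ± 0.18) were called with all arrays, but lost their calls without 0 min replicate A (0.44 and 0.35), 60 min replicate A (0.42 and 0.62) or 60 min replicate C (0.46 and 0.53), and S100A16 also without 0 min replicate C (0.46). On chromosome 19, the zinc finger genes ZNF121 and ZNF561 rose by 0.91 ± 0.15 and 0.89 ± 0.13 beside ZNF562, whose call (0.67 ± 0.19) was lost in each of the 6 refits without 1 array, with changes between 0.62 and 0.72. On chromosome 11, FOSL1 and its neighbour CCDC85B rose by 2.82 ± 0.14 and 1.41 ± 0.14, and CCDC85B read 5.83, 5.95 and 5.53 before and 7.31, 7.12 and 7.09 after EGF. Neighbouring probesets can report overlapping transcripts, which was not tested.

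Genes that share a symbol root can also be counted. Among 462 measured genes with the root ZNF, 22 were higher and 8 lower (4.76% and 1.73%), close to the shares of all genes. Of 361 SLC transporters 11 were higher and 1 lower (3.05% and 0.277%), against 4.82% and 0.975% of all genes.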
